A study of Mus musculus with 6 samples.

Results

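The secreted Wnt inhibitors followed here were 7 genes, Wif1, Sfrp1, Sfrp2, Sfrp4, Frzb, Dkk2 and Dkk3. They were chosen by name, from families of secreted proteins that bind Wnt ligands or their co-receptors, with earlier results of these data known. All 7 were found among the 27179 genes of the bulk count table. They were also among the 30716 genes of the single-cell tables, with mitochondrial genes left out. The question was which of the co-cultured cells carried the RNA of which inhibitor, and whether the levels differed between co-cultures with neonatal and with adult fibroblasts. Immature cardiomyocytes (imCMs) of newborn C57BL/6 mice were grown with cardiac fibroblasts of neonatal (NF) or adult (AF) hearts, which had been passaged before use, and cells were sorted by a tracker dye after co-culture. Bulk RNA-Seq covered 2 libraries of cardiomyocytes from co-culture with NFs (imCM-NF) and 2 from co-culture with AFs (imCM-AF). Single-cell RNA-Seq on a nanowell chip gave 1 library labelled cardiomyocytes and 1 labelled fibroblasts. The labels name no genotype or drug for any group, and nothing in them says whether libraries came from separate cultures, so that p values measure only the spread between these libraries, which may be technical.

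Wnt ligands signal through Frizzled receptors with the co-receptors LRP5 and LRP6, and stabilize beta-catenin in the canonical branch. WIF1 and the secreted Frizzled-related proteins (SFRP1, SFRP2, SFRP4 and FRZB, also called SFRP3) bind Wnt ligands outside the cell, the latter with a domain that resembles the ligand-binding part of Frizzled. Dickkopf proteins such as DKK2 bind the LRP co-receptors instead, and DKK3 is a divergent member of that family. In the heart, Wnt signaling takes part in cardiomyocyte specification, in valve and vessel formation and in the response of fibroblasts to injury.

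The RefSeq promoter table held 4 of the 7 members, and 3 of these are shown because their RNA was highest in different kinds of cells. Each line gives the 250 bases before the annotated transcription start on the strand of the gene (GRCm38.p6), for Wif1 chr10:121033754-121034003 (plus strand), for Frzb chr2:80447397-80447646 (minus strand) and for Dkk2 chr3:132085042-132085291 (plus strand). For Dkk2 the promoter table takes a start at 132085292, which is 26 bases inside the span of the gene given with its values, so the last 26 bases of its window lie within that span. Capitals mark CTTTGA, the core bound by TCF/LEF factors, or TATAAA, the TATA box, on either strand.
Wif1: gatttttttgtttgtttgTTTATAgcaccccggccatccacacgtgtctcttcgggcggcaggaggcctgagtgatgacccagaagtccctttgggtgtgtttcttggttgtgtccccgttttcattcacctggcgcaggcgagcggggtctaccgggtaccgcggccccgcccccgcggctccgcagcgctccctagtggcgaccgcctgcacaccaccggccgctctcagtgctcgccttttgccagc
Frzb: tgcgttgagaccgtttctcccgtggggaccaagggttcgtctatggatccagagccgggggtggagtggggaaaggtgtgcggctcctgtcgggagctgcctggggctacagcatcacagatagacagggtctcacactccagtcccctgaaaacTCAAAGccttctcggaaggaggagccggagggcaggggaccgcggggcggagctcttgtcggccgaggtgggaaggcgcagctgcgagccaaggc
Dkk2: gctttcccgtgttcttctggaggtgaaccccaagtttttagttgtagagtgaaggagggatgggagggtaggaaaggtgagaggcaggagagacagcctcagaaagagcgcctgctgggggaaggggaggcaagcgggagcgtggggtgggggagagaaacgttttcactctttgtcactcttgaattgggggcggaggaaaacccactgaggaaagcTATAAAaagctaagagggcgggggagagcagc
CTTTGA was found in the Frzb window, from -95 to -90 relative to the start and on the opposite strand, and it stood in 13.8% of all 32851 promoter windows of this length. TATAAA stood from -32 to -27 in the Dkk2 window and, on the opposite strand, from -232 to -227 in the Wif1 window, against 12.4% of all windows. AGATAA, a core of GATA factor sites, was in none of these 3 windows and in 9.99% of all windows. The GC content was 62.8% for Wif1, 64.4% for Frzb and 55.6% for Dkk2, with a median of 52.4% over all windows. No binding was measured, so these matches describe letters only.

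In the bulk libraries, RNA of Sfrp2 and Dkk2 was lower in imCM-AF than in imCM-NF, that of Wif1 and Sfrp1 lay lower without passing the test, and that of Frzb and Dkk3 lay slightly higher. Levels are counts per 1000000 (CPM) after TMM scaling of the libraries, and calls needed a log2 fold change (imCM-AF over imCM-NF) beyond 0.58 in either direction with an adjusted p under 0.05. Of the 7 members, 3 were called, all lower in imCM-AF, but Sfrp4 among these entered the test only through imCM-NF. Of the 14041 genes tested, 11.1% were called in either direction, 6.15% higher and 4.99% lower. The members were chosen with earlier results of these data known, so these counts are no test of the members as a set. The libraries of both groups did not overlap for any of the 7 members, as was the case for 66.0% of all tested genes. The median log2 fold change of the members was -0.59, and -0.40 without Sfrp4, which passed the filter on low counts only through imCM-NF, beside 0.00 over all tested genes.

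**Figure D1:**
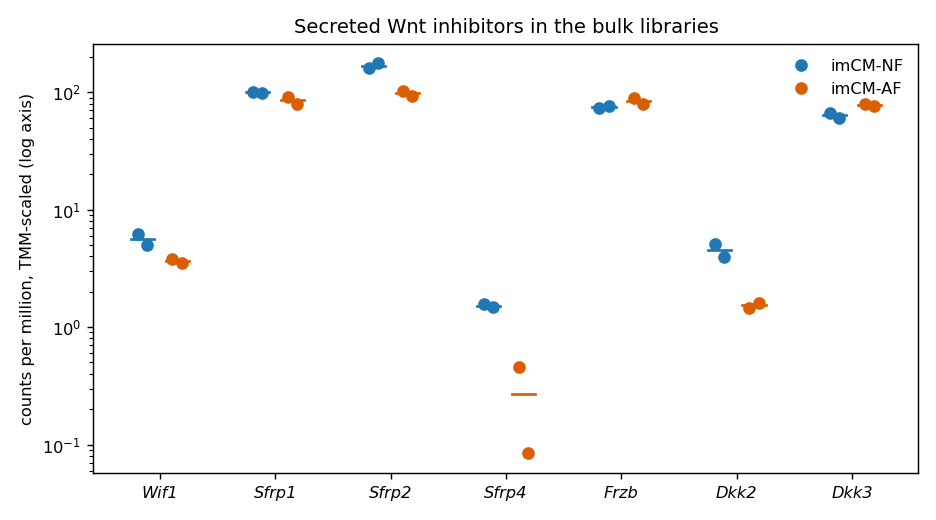
CPM (TMM-scaled, log axis) of the 7 inhibitors in the 4 bulk libraries, with 1 point for each library and a line at the mean of each group (blue, imCM-NF, n = 2; orange, imCM-AF, n = 2). Wif1, Sfrp1, Sfrp2, Sfrp4 and Dkk2 lay lower in both imCM-AF libraries, of which Sfrp2, Sfrp4 and Dkk2 were called. Frzb and Dkk3 lay slightly above the imCM-NF libraries and were not called.

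Among the Wnt-binding members, Sfrp2 (chr3:83765750-83774314) stood at 160.2 and 175.8 CPM with NFs against 102.9 and 93.6 CPM with AFs. The change on the log2 scale was -0.77 (SE 0.10, adjusted p = 2.82e-05), and Sfrp2 was called in all 13 alternative fits. Sfrp1 (chr8:23411383-23449632) stood at 100.2 and 99.4 CPM with NFs against 91.9 and 79.6 CPM with AFs, and this change of -0.22 on the log2 scale (SE 0.10) did not pass the test (adjusted p = 0.104). Frzb (chr2:80411970-80447396) stood at 72.9 and 76.7 CPM with NFs against 88.9 and 79.5 CPM with AFs, which did not pass either (log2 fold change 0.17, SE 0.10, adjusted p = 0.205). The 3 abundant Wnt-binding members thus did not move together.

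Wif1 (chr10:121034004-121100642) was low in bulk, at 6.24 and 4.96 CPM with NFs against 3.83 and 3.53 CPM with AFs, from 42 to 60 counts a library. Its log2 fold change of -0.59 (SE 0.24) missed the adjusted threshold (adjusted p = 0.0769), and it passed when no filter on low counts was used (-0.60, adjusted p = 0.0491) and in a fit with crossed replicate numbers that was added after the data were seen (-0.59, adjusted p = 0.0416), with adjusted p between 0.0775 and 0.326 in the other 11 alternative fits. Sfrp4 (chr13:19623175-19632825) had 14 and 18 counts with NFs against 5 and 1 with AFs. It entered the test only through the imCM-NF libraries, in which its CPM was over 1, so its call (log2 fold change -2.48, SE 0.56, adjusted p = 0.00393) is no support for a lower level of the members. The ratio of its summed counts, imCM-NF over imCM-AF and scaled by the library totals, was 5.63 with an exact 95% interval of 2.32 to 16.5, which covers counting error only. Without imCM-AF replicate 2, the library with 1 count, the call was lost (log2 fold change -1.70, adjusted p = 0.0717), and without either imCM-NF library Sfrp4 was not tested.

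Of the Dickkopf members, Dkk2 (chr3:132085266-132180304) stood at 5.13 and 3.97 CPM with NFs against 1.46 and 1.60 CPM with AFs. With a log2 fold change of -1.54 (SE 0.30, adjusted p = 0.00116) it was 2.92-fold lower in imCM-AF, and it was called in all 13 alternative fits. Dkk3 (chr7:112116019-112159482) stood at 66.8 and 60.1 CPM with NFs against 79.9 and 76.5 CPM with AFs. This change of 0.30 on the log2 scale (SE 0.10, adjusted p = 0.0258) was below the fold threshold, so Dkk3 was not called. By the adjusted p alone Dkk3 passed, as did 27.0% of all tested genes.

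Per kilobase of exon, the mean level was highest for Sfrp2 in both groups, at 78.0 CPM per kilobase in imCM-NF and 45.6 in imCM-AF. Frzb (23.1 and 26.0), Sfrp1 (22.8 and 19.6) and Dkk3 (18.9 and 23.3 CPM per kilobase) followed at similar levels. In imCM-NF the libraries of Frzb and Sfrp1 overlapped in level, and in imCM-AF Dkk3 lay between Frzb and Sfrp1. Wif1 (2.31 and 1.52), Dkk2 (1.23 and 0.412) and Sfrp4 (0.365 and 0.0646 CPM per kilobase) were the low members.

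Fibroblast and endothelial markers moved in the same direction as Sfrp2 and Dkk2. The 14 fibroblast markers summed to 20388 and 22670 CPM with NFs against 13995 and 11121 CPM with AFs, with 8 called lower, 1 called higher and none at 0. The 12 endothelial markers summed to 1514 and 1615 CPM with NFs against 1180 and 1064 CPM with AFs, with 5 called lower and none at 0. The 15 cardiomyocyte markers summed to between 39391 and 54357 CPM over the 4 libraries. The part of these cells in the values of the inhibitors was not tested, and in bulk samples fewer cells of a type and less RNA per cell cannot be told apart.

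Most other genes of the pathway were not called. Of 87 listed ligands, receptors, transducers, targets and further inhibitors, 61 were tested, 3 were called higher and 2 lower, that is 4.92% and 3.28% of those tested, beside 6.15% and 4.99% of all tested genes. Among the other secreted inhibitors and Dickkopf co-receptors, 1 of 5 tested was called, Tpbg, a membrane inhibitor of Wnt signaling, which fell by 0.62 on the log2 scale (SE 0.17, adjusted p = 0.0137), while Dkk4 had no count and 8 of the 13 were not tested. Kremen1, a co-receptor of Dickkopf proteins, stood between 83.2 and 105.6 CPM and did not pass (adjusted p = 0.435). Of the ligands and their secretion genes, 1 of 9 tested rose and 1 fell, both at low levels. Wnt11, a non-canonical ligand, rose from a mean of 1.73 to 3.37 CPM (adjusted p = 0.0242), and Wnt16 fell from 2.45 to 1.23 CPM (adjusted p = 0.0408), but both calls and that of Tpbg were lost in several alternative fits. The most abundant ligands, Wnt5b (means 19.5 and 18.1 CPM) and Wnt5a (6.75 and 8.12 CPM), did not pass. None of the 17 tested receptor and R-spondin genes was called by edgeR, nor by DESeq2 or limma-voom, although 7 had an unadjusted p under 0.05 and 5 passed the adjusted p without the fold threshold, 4 of them lower, where 27.0% of all tested genes passed. The Wnt receptor Fzd2 was one of these, at 88.1 and 85.3 CPM with NFs against 57.7 and 63.6 CPM with AFs (edgeR adjusted p = 0.000831). None of the 17 transduction genes was called by the 3 tools, and again 7 had an unadjusted p under 0.05, with 3 past the adjusted p alone. Dvl2, a Dishevelled gene, came close to the fold threshold with a log2 fold change of -0.58 (SE 0.11, adjusted p = 0.00115).

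Of the 13 tested target and feedback genes, 2 rose in imCM-AF, where 6.15% of all tested genes were called higher. Nkd2, a feedback inhibitor that binds Dishevelled, rose from a mean of 11.2 to 20.4 CPM (log2 fold change 0.86, SE 0.14, adjusted p = 0.000363), and Ccn5, a matricellular protein also called WISP2, rose from 96.5 to 153.5 CPM (log2 fold change 0.67, SE 0.11, adjusted p = 0.000320). Axin2, the common feedback target of beta-catenin, was at means of 3.78 and 3.86 CPM (log2 fold change 0.03, SE 0.26, adjusted p = 0.939), with a sign that depended on the libraries used.

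In the single-cell data, the wells carry a name (Type) with a number, and the labels do not say what NCM or 0 stands for, so wells are called by these names. On the cardiomyocytes chip 258 NCM0, 523 NFNCM and 515 AFNCM wells were kept, and on the fibroblasts chip 256 NF, 219 AF, 306 NF0 and 170 AF0 wells, with median UMI totals between 16045 and 38627 by name. A UMI is a molecular tag that lets copies of 1 transcript be counted once, and levels are UMIs per 1000000 UMIs (CPM) over all wells of a name, with an exact 95% Poisson interval for counting error only. Each chip is 1 library and wells are not replicates, so no test is given. Each name comes from 2 or 3 numbered source-plate wells, whose values are given as the nearest thing to a repeat. The chips shared 213 barcodes among kept wells, since both use the same barcode set. Cardiomyocyte markers summed to between 43249 and 51020 CPM on the cardiomyocytes chip and to between 281 and 5691 CPM on the fibroblasts chip.

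**Figure D2:**
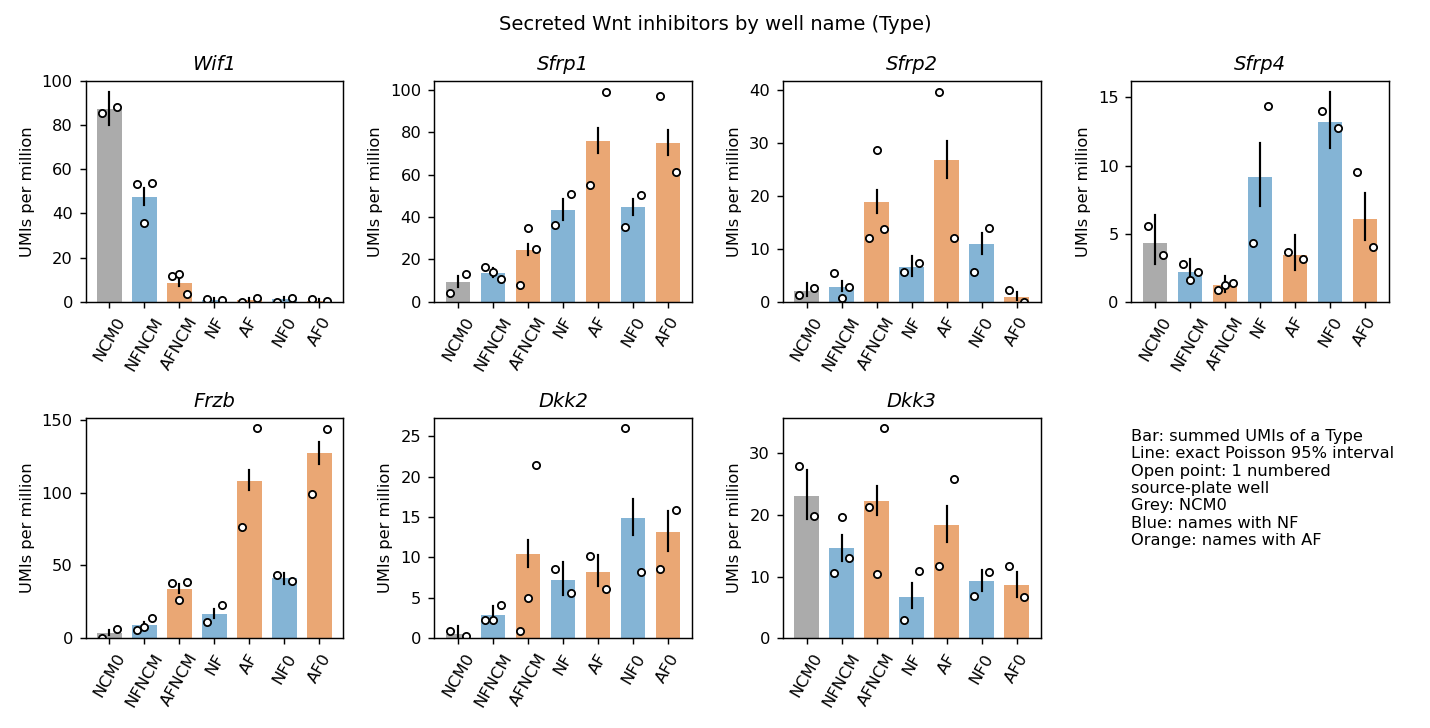
CPM (UMIs) of the 7 inhibitors by name of well, as bars over all kept wells with the exact 95% Poisson interval (black line) and an open point for each source-plate well (grey NCM0, blue names with NF, orange names with AF). Wif1 stood highest in NCM0 and NFNCM wells, and Frzb in AF and AF0 wells.

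Wif1 RNA was found mainly in wells of the cardiomyocytes chip. Its level was 87.4 CPM (79.99 to 95.4) in NCM0 wells, 47.5 (43.8 to 51.4) in NFNCM wells and 8.62 (7.199 to 10.2) in AFNCM wells, and between 0.477 and 1.15 CPM in the names of the fibroblasts chip. The source-plate wells kept this order without overlap, with 85.7 and 88.5 CPM for NCM0, 53.4, 35.9 and 53.7 for NFNCM and 11.5, 12.4 and 3.23 for AFNCM. The level was thus 5.51-fold higher in NFNCM than in AFNCM wells, and 6.83-fold higher without the highest well of each name. After each well was thinned to 5000 UMIs, the share of wells with a Wif1 UMI was 20% of 215 NCM0 wells, 12.2% of 410 NFNCM wells and 3.42% of 438 AFNCM wells, and between 0% and 1.35% of the fibroblast wells, which serve as background. Without thinning these shares were 29.5%, 16.6% and 7.38%, with 0.980% to 1.37% on the fibroblasts chip.

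Wells of both chips were grouped into 17 clusters without use of the 7 members, and clusters were named from fixed markers. Of 2247 wells, 676 fell in 5 cardiomyocyte-like clusters, 537 in 3 fibroblast-like, 121 in 2 endothelial-like, 38 in 1 macrophage-like and 875 in 6 unnamed clusters. Wif1 reached 90.4 CPM (81.6 to 100.0) in cluster 3, 67.0 (60.03 to 74.5) in cluster 8 and 81.2 (71.9 to 91.2) in cluster 9, all cardiomyocyte-like. It was at 10.2 CPM (7.73 to 13.2) in cluster 10, which is led by Sprr2a1 and the interferon-induced gene Ifit1 and holds 131 AFNCM wells of 133, and at 2.15 CPM (0.444 to 6.29) in cluster 16. Unnamed clusters 12 (led by Ccne2, a cyclin gene) and 6 (median of 4003 UMIs a well), which were mostly wells of the cardiomyocytes chip, were in between, at 36.6 CPM (31.1 to 42.7) and 30.5 CPM (21.1 to 42.6). In the 3 fibroblast-like clusters it was at most 0.574 CPM.

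Cluster 16 is led by Sln, Myl7 and Nppa, genes known for their high expression in atrial muscle, and its 39 wells carried a different inhibitor. Dkk3 was at 221.6 CPM (197.6 to 247.7) there, with a UMI in 79.5% of wells. In the other 4 cardiomyocyte-like clusters Dkk3 was between 1.43 and 12.7 CPM. The high level was seen under both co-culture names, at 153.3 CPM (119.7 to 193.4) in 15 NFNCM wells and 205.4 CPM (175.0 to 239.6) in 17 AFNCM wells. Sfrp1 was also higher there, at 45.9 CPM (35.3 to 58.6), than in the other 4, where it was between 1.67 and 10.4 CPM.

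**Figure D3:**
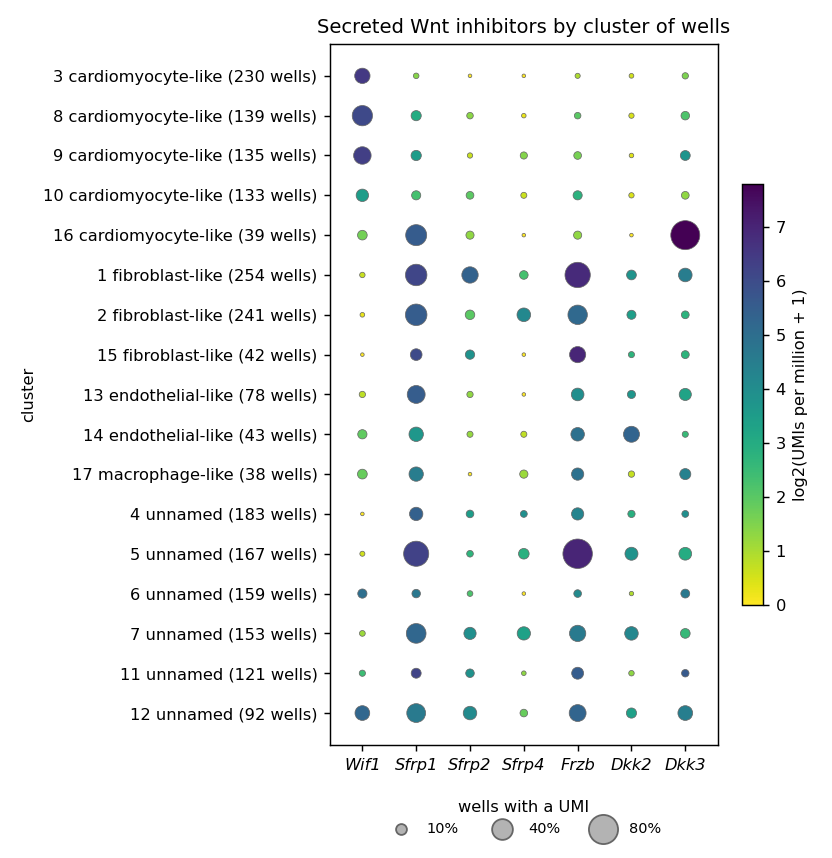
The 7 inhibitors (columns) in the 17 clusters of wells (rows, with class and number of wells), colored by log2(CPM + 1), with the point area giving the percent of wells with a UMI. Wif1 was highest in cardiomyocyte-like clusters 3, 8 and 9, followed by unnamed clusters 12 and 6, Dkk3 was highest in cluster 16 and Frzb in clusters 1, 5 and 15, and Dkk2 was highest in endothelial-like cluster 14.

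The names held these clusters in different shares, with 163 NFNCM wells but 17 AFNCM wells in cluster 3 and 103 against 12 in cluster 8, so Wif1 was also compared within clusters. In cluster 3 it was at 99.0 CPM (88.3 to 110.5) in NFNCM wells and 22.4 CPM (4.61 to 65.4) in AFNCM wells, the latter from 3 UMIs in 1 well. In cluster 8 it was at 51.7 CPM (44.7 to 59.5) in NFNCM and 13.04 CPM (4.23 to 30.4) in AFNCM wells, the latter again from 1 well, with 154.7 CPM (129.99 to 182.8) in 24 NCM0 wells. NCM0 and NFNCM wells did not keep 1 order, since NCM0 was lower in cluster 3 (78.4 CPM, 59.9 to 101.0, overlapping NFNCM) and higher in cluster 9 (106.7 against 23.4 CPM). Cluster 3 had a smooth muscle or pericyte marker, Abcc9, among its 10 leading genes and none of the cardiomyocyte list. By all fixed markers, 12 of the cardiomyocyte list and 3 of the smooth muscle or pericyte list were raised in it. Over all cardiomyocyte-like wells, the NCM0 source-plate wells were at 106.4 and 110.8 CPM of Wif1. Those of NFNCM were at 81.1, 46.4 and 74.8 CPM, and those of AFNCM at 17.4, 13.2 and 6.71 CPM. These sums mix clusters in different shares, with 131 AFNCM wells in cluster 10, and the part of this in the levels was not tested.

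**Figure D4:**
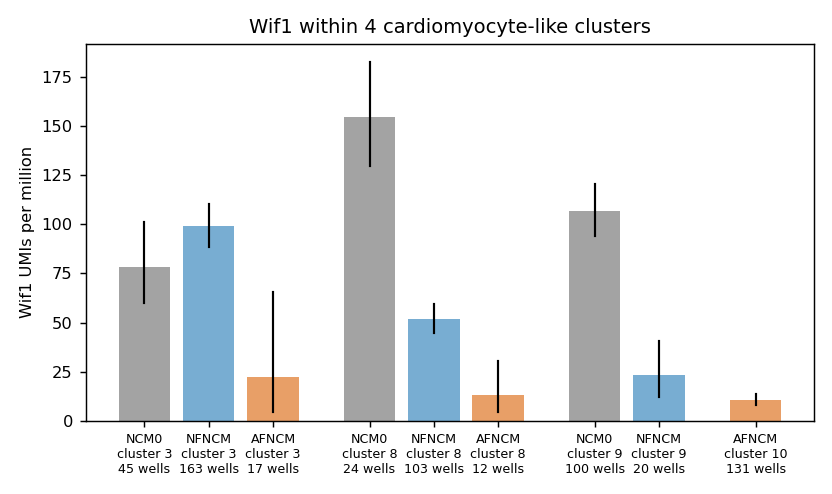
Wif1 CPM within cardiomyocyte-like clusters 3, 8, 9 and 10, by name of well (names with at least 10 wells in a cluster), with exact 95% Poisson intervals. AFNCM wells lay below NFNCM wells in clusters 3 and 8, where few AFNCM wells were found.

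Frzb was higher under each adult name than under its neonatal counterpart, but adult and neonatal wells lay in different clusters. Of the 170 AF0 wells 166 were in unnamed cluster 5, led by Upk1b and with 4 of the 12 epicardial or mesothelial markers raised. Also raised in cluster 5 were 3 fibroblast, 2 endothelial and 2 smooth muscle or pericyte markers. NF0 wells lay mostly in clusters 2 (149 wells), 4 (55) and 7 (56), and 159 of the 219 AF wells were in cluster 1, which held 0 NF wells. Epicardial or mesothelial markers summed to 484.6 CPM in AF0 (Muc16 at 0) and 82.1 CPM in NF0 wells (Msln, Krt8 and Muc16 at 0), endothelial markers to 582.1 and 174.3 CPM, and fibroblast markers to 7861 and 8623 CPM. By cluster, however, only 1 AF0 well and 9 NF0 wells were endothelial-like. Between AF and NF wells the fibroblast markers differed, at 12200.5 and 5891 CPM. The part of these differences in the levels of Frzb, Sfrp1, Sfrp2 and Sfrp4 was not tested. On the fibroblasts chip it was at 108.3 CPM (101.6 to 115.4) in AF and 16.6 CPM (13.7 to 19.9) in NF wells, a ratio of 6.53, and at 127.1 CPM (119.6 to 135.0) in AF0 and 41.1 CPM (37.6 to 44.8) in NF0 wells, a ratio of 3.09. The source-plate wells did not overlap, at 76.3 and 144.3 CPM for AF against 11.1 and 22.6 for NF, and at 99.3 and 144.0 for AF0 against 43.4 and 39.7 for NF0. The share of wells thinned to 5000 UMIs with a Frzb UMI was 21.2% of 208 AF wells and 7.17% of 223 NF wells, and 40.2% of 169 AF0 and 10.8% of 288 NF0 wells (unthinned 50.2%, 16.4%, 82.4% and 30.7%). Among cells not known for Frzb, cardiomyocyte-like cluster 3 had 0.952 CPM, while the 38 macrophage-like wells had 29.3 CPM (21.5 to 39.0), from a UMI in 13.2% of them and with 22 of the 47 UMIs in 1 well. The NF level was not above that of the macrophage-like wells. On the cardiomyocytes chip Frzb was at 34.1 CPM (31.2 to 37.1) in AFNCM and 9.19 CPM (7.62 to 10.99) in NFNCM wells, where 98 and 28 wells were fibroblast-like. In the fibroblast-like wells alone it was at 107.3 CPM (95.9 to 119.7) in AFNCM and 20.6 CPM (13.04 to 30.9) in NFNCM wells, and these lay mostly in cluster 1 (led by Cxcl5, Hp and Mmp3) and cluster 2 (led by Col11a1, Col14a1 and Postn), respectively.

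Sfrp1 had a smaller difference in the same direction. It was at 76.0 CPM (70.3 to 82.0) in AF and 43.3 CPM (38.6 to 48.4) in NF wells, and at 74.8 (69.1 to 80.9) in AF0 and 44.8 (41.1 to 48.7) in NF0 wells. Source-plate wells were at 55.2 and 99.3 CPM for AF, 36.4 and 50.8 for NF, 97.1 and 61.4 for AF0, and 35.4 and 50.5 for NF0, so that the lowest AF well was little above the highest NF well. At 5000 UMIs a well, 19.7% of AF and 17.5% of NF wells held a Sfrp1 UMI, against 42.5% and 29.7% unthinned. On the cardiomyocytes chip it was between 9.45 CPM in NCM0 and 24.6 CPM in AFNCM wells, and the macrophage-like wells were at 21.8 CPM (15.2 to 30.4). In cluster 11, an unnamed cluster of 118 AFNCM wells of 121, 81 of the 99 Sfrp1 UMIs came from 1 well.

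Sfrp2 differed in direction between the names. It was at 26.7 CPM (23.4 to 30.3) in AF and 6.47 CPM (4.73 to 8.63) in NF wells, but 101 of the 234 AF UMIs came from 1 well, and the AF level was 15.3 CPM without it. The source-plate wells were at 39.6 and 12.1 CPM for AF and 5.66 and 7.34 for NF. In the wells with 0 in their name the order was the opposite, with 0.834 CPM (0.335 to 1.72) in AF0 and 10.8 CPM (9.07 to 12.9) in NF0 wells. On the cardiomyocytes chip it was at 18.8 CPM (16.7 to 21.1) in AFNCM and 2.83 CPM (1.99 to 3.90) in NFNCM wells, with source-plate wells at 12.04, 28.6 and 13.6 against 5.31, 0.669 and 2.81. Fibroblast markers summed to 3766 CPM in AFNCM and 2013 CPM in NFNCM wells, and endothelial markers to 381.2 and 120.5 CPM. The highest cluster was fibroblast-like cluster 1, at 40.6 CPM (36.8 to 44.6), which holds 159 AF and 94 AFNCM wells of 254. The bulk libraries, in which Sfrp2 was lower in imCM-AF, had the opposite order, as they had for the summed fibroblast and endothelial markers.

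Sfrp4 was higher under the neonatal names of the fibroblasts chip. It was at 9.14 CPM (7.05 to 11.6) in NF and 3.42 CPM (2.31 to 4.88) in AF wells, and at 13.2 CPM (11.3 to 15.4) in NF0 and 6.08 CPM (4.52 to 7.99) in AF0 wells, where it was 9.61 CPM with no limits on UMIs. The order of the source-plate wells was kept without overlap in both pairs, the closest being 4.31 CPM in NF and 3.66 CPM in AF. Without the highest well of each, these 2 fell to 2.73 and 1.99 CPM. Of the 65 NF UMIs, 21 came from 1 well. Without the highest well of each name, NF was at 6.22 and AF at 2.54 CPM. The share of thinned wells with a Sfrp4 UMI was similar in NF and AF, at 0.897% and 0.962%. It was 4.51% in NF0 and 2.37% in AF0 wells, with overlapping intervals. The difference between NF and AF was thus seen in the level but not in the thinned share. Fibroblast-like cluster 2, which holds 149 NF0 and 57 NF wells of 241, had the highest level at 16.7 CPM (14.3 to 19.4). The cardiomyocyte-like clusters held 10 Sfrp4 UMIs in all.

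Dkk2 was found in few wells, 127 of 2247. The highest cluster was endothelial-like cluster 14, led by Fabp4, Pcdh17 and Gpihbp1, at 39.2 CPM (29.7 to 50.7) with a UMI in 23.3% of its 43 wells, while endothelial-like cluster 13 was at 12.4 CPM (8.60 to 17.4). In cluster 14, 18 of the 57 Dkk2 UMIs came from 1 well, and the level was 28.7 CPM without it. By number, most of the 612 Dkk2 UMIs lay elsewhere, with 238 in fibroblast-like and 275 in unnamed wells against 91 in endothelial-like wells. Of the wells of cluster 14, 38 were AFNCM wells, so a neonatal counterpart was not compared. By name, Dkk2 was at 10.4 CPM (8.84 to 12.2) in AFNCM and 2.91 CPM (2.06 to 3.99) in NFNCM wells, but the source-plate wells overlapped, at 0.840, 4.97 and 21.4 against 2.28, 2.23 and 4.11. The ratio of these levels was 3.58, and 3.12 without the highest well of each name. This order is opposite to that of the bulk libraries, in which Dkk2 was lower in imCM-AF, and the difference between the measurements was not tested. Fibroblast names were between 7.17 and 14.9 CPM, with overlapping source-plate wells for AF against NF and for AF0 against NF0, and AF wells fell from 8.20 to 5.27 CPM without the highest well. In the cardiomyocyte-like clusters it was at most 0.476 CPM.

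Dkk3 was carried by wells of both chips. It was at 23.0 CPM (19.3 to 27.3) in NCM0, 14.5 (12.6 to 16.8) in NFNCM and 22.2 (19.9 to 24.7) in AFNCM wells, and at 18.3 CPM (15.6 to 21.4) in AF wells. NF wells were at 6.75 CPM (4.98 to 8.95), which came to 3.002 CPM without the highest well, and NF0 and AF0 wells were at 9.20 CPM (7.58 to 11.1) and 8.58 CPM (6.71 to 10.8). The intervals of NF, NF0 and AF0, which cover counting error only, lay below those of the 3 names of the cardiomyocytes chip. However, the source-plate wells of NFNCM and AFNCM overlapped with those of these names. The lowest were at 10.6 CPM for NFNCM and 10.5 CPM for AFNCM. Against these, the highest were at 10.9 CPM for NF, 10.7 for NF0 and 11.7 for AF0. Source-plate wells were at 11.6 and 25.9 CPM for AF and 2.97 and 10.9 for NF.

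Wells could hold UMIs of several inhibitors. The share of wells with a UMI of any member was between 39.0% (NFNCM) and 92.9% (AF0), at different depths, and 111 of the 170 AF0 wells held at least 2 members. Sfrp1 and Frzb were detected together in 82 AF0 wells, with 18 wells holding Sfrp1 alone of the pair and 58 Frzb alone. In NF wells 26 held both, 50 Sfrp1 alone and 16 Frzb alone.

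Among the other Wnt genes, the ligand Wnt5b was at 4.77 CPM (3.86 to 5.84) in cardiomyocyte-like wells and 1.14 CPM (0.731 to 1.70) in fibroblast-like wells, and Wnt5a the reverse, at 1.07 CPM (0.660 to 1.63) and 9.46 CPM (8.19 to 10.9). Kremen1 was at similar levels in both, 17.3 and 16.4 CPM with overlapping intervals. Nkd2, which rose in imCM-AF in bulk, was at 1.57 CPM (1.07 to 2.24) in cardiomyocyte-like and 17.6 CPM (15.9 to 19.5) in fibroblast-like wells, and by name at 9.88 CPM in AFNCM and 2.60 CPM in NFNCM wells. Axin2 had 73 UMIs in all, of which 37 were in NF and 20 in NCM0 wells.

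The genes most like each inhibitor were ranked by the Pearson correlation of log2(CPM + 1) over 16 sums of wells of 1 name and class, among 9567 genes, and these sums share libraries and differ in depth. For Wif1 they were Tnni3k, a cardiac kinase (r = 0.945), Slc25a4, the mitochondrial ADP/ATP carrier of muscle (r = 0.940), and Atp5g3, a subunit of ATP synthase (r = 0.938). For Frzb they were Hdlbp (r = 0.946), Sdc1, a cell surface proteoglycan (r = 0.944), and Col3a1, a fibrillar collagen (r = 0.939). For Sfrp1 they were Clint1 (r = 0.924), Kdelr2 (r = 0.916) and Serpinh1, a collagen chaperone (r = 0.915). For Sfrp4 they were Map6, Csgalnact2 and Fat1 (r between 0.908 and 0.916), and for Dkk2 Zbed5, Utp20 and Gm9833 (r between 0.865 and 0.954). Sfrp2 (Haus1, Hist1h2ap and Hist1h2ab, r between 0.798 and 0.815) and Dkk3 (Gm14274, Dnaja3 and Bckdhb, r between 0.799 and 0.809) had less similar neighbors. The bulk libraries compare co-cultures and not kinds of cells, so they do not measure this likeness. There Tnni3k rose in imCM-AF (mean 51.1 to 80.1 CPM, log2 fold change 0.66, adjusted p = 0.000445), while Wif1 lay lower without passing the test.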

How the data were processed

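The members, pathway lists and cell type markers were chosen with earlier results of these data known. The authors deposited the bulk data as raw counts for each gene, from uniquely aligned reads (mm10, Subread) assigned with featureCounts. Whether strand was used is not given in the sources used here. Single-cell values are UMI counts of each gene in each well as deposited, after barcode and UMI filtering, trimming, a contaminant screen and alignment with STAR 2.5.2b, per the labels and methods. The deposited report tables give read pairs per well as counts.

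Bulk totals were 9278909 and 12088577 (imCM-NF) and 10766124 and 11790263 (imCM-AF). Replicates differed beyond counting noise (chi-square per degree of freedom 8.60 and 8.42). Genes with over 1 CPM in at least 2 libraries (the table has no lengths) were tested with edgeR 4.0.16 in R 4.3.3 (quasi-likelihood, TMM, group as the only term, two-sided), adjusted by Benjamini-Hochberg over all 14041. SE is the log2 fold change over the square root of F. The fit was tested on simulated data. Exon lengths are from GENCODE M21, coordinates from RefSeq (GRCm38, the assembly of mm10), and the symbol-less identifiers held 3.52% of counts.

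Of 2462 wells other than controls, 2247 passed the filters, which asked for 500 genes, alignment of over 50% of the screened read pairs and no more than 129577 UMIs (2 SD above the mean). Spike-in columns (85 and 79) were left out and no doublet caller was run. Clustering used scanpy 1.11.5 (10 components, 30 neighbors, Leiden resolution 1) without the members and mitochondrial genes. A cluster was named where at least 3 markers of a type were raised and at least 2 times as many as of any other type. All 7 members, the called genes of each pathway list (up to 4), Axin2, ligands of at least 5 CPM and the 3 genes most like each member are named by rule, and other genes after their values were seen.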

Additional observations from a re-analysis of the deposited data

Results flagged for a closer look

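Sfrp2 ran in opposite directions in different measurements, with no overlap between the libraries or source-plate wells in any of them, and the differences between them were not tested. Such a lack of overlap was common in bulk, at 66.0% of all tested genes, and its share was not computed for source-plate wells. The ratio of the Sfrp2 means, adult over neonatal, was 0.585 in the bulk cardiomyocytes, 6.16 for AFNCM over NFNCM wells, 3.98 for AF over NF wells and 0.113 for AF0 over NF0 wells. Of the 234 Sfrp2 UMIs in AF wells, 101 came from 1 well. For Sfrp1 the ratio was 0.859 in the bulk cardiomyocytes, and 1.77 for AF over NF and 1.85 for AF0 over NF0 wells, also without overlap and not tested. These are different fractions and assays of the co-culture, and source-plate wells are not said to be replicates.

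The 10 positive control wells of both chips, which enter no comparison, held 54 Sfrp1 UMIs in 7 wells. The 10 negative control wells held 0 UMIs of any of the 7 inhibitors, and the positive control wells held 0 of the other 6.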

How the results depend on the processing

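In bulk, 1564 genes were called (864 higher, 700 lower) with 3 members lower, Sfrp4 among them, and 0 higher. With an adjusted p alone, without the fold threshold, it was 3789 genes (1759 higher, 2030 lower) and 1 member higher, Dkk3. Leaving out 1 library gave 879 to 1929 genes (498 to 1074 higher, 381 to 855 lower), the lowest being without imCM-NF replicate 2, and 988 for imCM-AF replicate 2. The lone library of an arm is there assumed to vary like the other group. Members called were 2 to 3, and 3 or 4 in the other fits. The numbers in the titles did not pair the libraries (correlation of deviations -0.131). The fit with a replicate block called 1430 genes and the same 3 members, and crossed numbers, added after seeing the data, 1668 genes and 4 members. With DESeq2 it was 1078 genes and 3 members. Of 193 alternative values of named genes 171 kept their call and direction. With 1 library left out, Axin2 ranged from -0.28 to 0.30 on the log2 scale and Wnt5b from -0.34 to 0.18, so both changed sign. The cause was not tested.

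In single cells, the number of members higher in AF than NF wells was 4 or 5, in AFNCM than NFNCM 5, and in AF0 than NF0 2 or 3 over the alternatives. The share of all genes with the same direction was not computed, so these counts are no result about the members. Of 222 alternative levels 175 moved by less than their counting interval. Leaving out the highest well, added after seeing the data, moved 23 of 52, and no limit on UMIs 15 of 52. At 5000 UMIs a well 42 of 49 shares moved. Bulk depth limits Sfrp4, Dkk2 and Wif1, with 1 to 60 counts a library. No alternative for the chips themselves could be had, since each fraction is 1 library.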
